A study of Mus musculus with 10 samples.

Results

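The HoxB cluster is the row of 10 homeobox genes Hoxb1 to Hoxb9 and Hoxb13 on mouse chromosome 11. All 10 were found by symbol among the 22552 genes of a table of RNA levels in cerebellum of E13.5 embryos, at mid-gestation, and they are described here in cluster order, from Hoxb1 at the 3' end to Hoxb13 at the 5' end. The Ezh2 deletion group (4 libraries) came from embryos in which Pax7-Cre deleted a floxed Ezh2, with a Rosa-YFP allele bred in to guide the dissection, and the comparison embryos were wild type (4 libraries). Both groups had the mixed background C57BL/6;129, and the labels used here do not say whether the wild type embryos carried the Cre or YFP alleles. Pax7 is expressed in only some cells of the embryo's brain, so the Ezh2 deletion tissue can also hold cells that kept Ezh2. Levels are RPKM, which divides a gene's reads by its length and by the library's total, and in whole tissue more expressing cells and more RNA per cell cannot be told apart. H3K27me3 ChIP-seq samples of the study, 1 per genotype, were not analysed here.

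Hox genes encode DNA-binding transcription factors that give cells their position along the head to tail axis. Genes at the 3' end of a cluster are normally active further forward in the body than those at the 5' end. The cerebellum forms from the front end of the hindbrain, a territory that does not normally express Hox genes. The enzyme Ezh2, a part of Polycomb repressive complex 2 (PRC2), places the silencing mark H3K27me3, and Hox clusters are textbook targets of that mark.

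Before the members, the libraries themselves were compared. Ezh2 RNA was 53.8, 48.7, 51.1 and 64.4 RPKM in Ezh2 deletion libraries 1 to 4, against 73.6, 84.7, 78.2 and 78.2 RPKM in wild type 1 to 4 (limma adjusted p = 0.00737). These values are for the whole gene and may include RNA from the deleted allele, so they do not measure how much Ezh2 function was lost. The 12 markers of embryonic cerebellum summed to 637 to 650 RPKM in Ezh2 deletion and to 579 to 734 RPKM in wild type, and among them Pax2 was higher and Skor2 lower in Ezh2 deletion. Relative depth, read from the value of 1 read in low genes, was 1.25 to 2.11 in Ezh2 deletion and 1 to 1.35 in wild type, with wild type 1 set to 1. The genotypes also differed in sex markers: the Y-linked gene Ddx3y was at most 0.0219 RPKM in Ezh2 deletion 1 to 3 and was 7.92 RPKM in Ezh2 deletion 4, against 8.31 to 9.43 RPKM in wild type. The members and the called genes of the Hox-related lists are therefore also given for Ezh2 deletion 4 against wild type, the comparison within libraries that carry Y-linked RNA.

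HoxB RNA was near or at 0 in wild type cerebellum and present in every Ezh2 deletion library. The summed level of the 10 genes was 28.8, 33.7, 24.0 and 23.4 RPKM in Ezh2 deletion 1 to 4, against 0.0629, 0.134, 0.0952 and 0.123 RPKM in wild type 1 to 4. Mean levels reached 1 RPKM for 7 of the 10 members in Ezh2 deletion, whereas the highest wild type mean of any member was 0.0306 RPKM. All 4 deletion libraries lay above all 4 wild type libraries for 9 members, the exception being Hoxb1, whose groups overlapped. The same separation was found for 6.08% of the 19268 genes with a value above 0 in any library.

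Genes with a mean over all 8 libraries of 0.25 RPKM or more were tested with limma on log2(RPKM + 0.25), and p-values were adjusted over all 14279 genes tested. Of the 10 members, 8 passed this level filter and all 8 were called higher in Ezh2 deletion (adjusted p under 0.05), where 2.71% of all genes tested were called higher and 0.742% lower. All 8 passed the filter through their deletion libraries, so this count had to lean towards higher and is not used as support. Hoxb1 and Hoxb9 lay below the filter and were compared by exact permutation. Log2 differences below are Ezh2 deletion minus wild type on the log2(RPKM + 0.25) scale, which understates changes from values near 0. Their size depends on the pseudocount for all 8 members: Hoxb8 differed by 5.93 with 0.1 RPKM added and by 3.02 with 1 RPKM added, and Hoxb4 by 3.16 and 0.90. Nothing in the labels ties libraries to individual embryos, so the spread behind each p-value is that between libraries and may be technical. By their Ddx3y levels, Ezh2 deletion 4 (7.92 RPKM) and Ezh2 deletion 1 to 3 (at most 0.0219 RPKM) came from different embryo material. Limma also pools the spread of both groups and moderates it over genes, while 4 members were listed at 0 throughout wild type and have no spread there. For Hoxb8 the exact two-sided permutation p was 0.0286, the lowest value that 4 against 4 libraries allow.

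**Figure D1:**
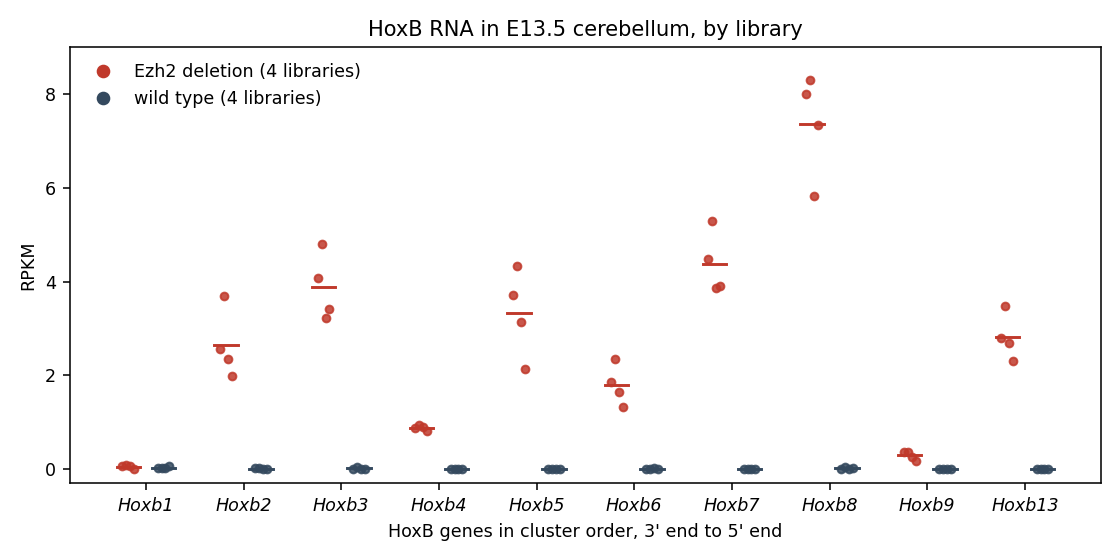
RPKM (vertical axis) of each HoxB gene in cluster order (horizontal axis), with 4 Ezh2 deletion libraries in red left of 4 wild type libraries in dark blue; dots are libraries and lines are group means. Deletion values vary along the cluster, with Hoxb8 highest (mean 7.37 RPKM) and Hoxb1 lowest (mean 0.0549 RPKM), while no wild type value exceeds 0.0641 RPKM.

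The first genes in the row, at the 3' end, serve the hindbrain, and they did not behave alike. Hoxb1, which specifies rhombomere 4 and its facial motor neurons, was at 0.0689, 0.0817, 0.0691 and 0 RPKM in Ezh2 deletion 1 to 4, against 0.0216, 0.0172, 0.0197 and 0.0641 RPKM in wild type 1 to 4. Its groups overlapped, since the only deletion library at 0 was below every wild type library, and the log2 difference was 0.11 (exact two-sided permutation p = 0.4). Without Ezh2 deletion 4 it was 0.21 (exact two-sided permutation p = 0.0571), and the other 3 deletion libraries then lay above all wild type libraries. A rise of Hoxb1 was thus not detectable over all libraries. Hoxb2, a neighbour that acts in the same rhombomeres, was at 2.55, 3.69, 2.36 and 1.98 RPKM in Ezh2 deletion 1 to 4, against 0.0283, 0.0226, 0 and 0 RPKM in wild type 1 to 4. The lowest deletion library was far above the highest wild type library, and Hoxb2 rose by 3.43 on the log2 scale (SE 0.175, limma adjusted p = 2.56e-06). Levels of Hoxb2 and Hoxb1, which follow each other on the chromosome, differed 48.2-fold in mean RPKM within the deletion libraries.

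Hoxb3 and Hoxb4 pattern the posterior hindbrain and the neck region. Hoxb3 was at 4.09, 4.81, 3.23 and 3.42 RPKM in Ezh2 deletion 1 to 4, against 0.0130, 0.0414, 0.0119 and 0.00965 RPKM in wild type 1 to 4. It rose by 3.93 on the log2 scale (SE 0.143, limma adjusted p = 2.16e-07). Hoxb4, also known for expanding blood stem cells when it is overexpressed, was at 0.875, 0.947, 0.904 and 0.810 RPKM in Ezh2 deletion 1 to 4, against 0, 0.0136, 0.0156 and 0.0127 RPKM in wild type 1 to 4. Its deletion libraries lay closer together than those of any other member, with an SD of 6.55% of the mean, and it rose by 2.12 on the log2 scale (SE 0.123, limma adjusted p = 7.03e-06). In the RefSeq annotation Hoxb3 overlaps Hoxb4, and the antisense transcript Hoxb3os overlaps Hoxb3 and Hoxb2. The sources used here do not say whether the authors counted by strand, so reads of these overlapping genes cannot be told apart with certainty.

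Hoxb5 and Hoxb6 are trunk genes, of which Hoxb5 is also used by vagal neural crest that builds the gut's nervous system. Hoxb5 was at 3.72, 4.34, 3.14 and 2.13 RPKM in Ezh2 deletion 1 to 4 and was listed at 0 in wild type 1 to 4 (limma adjusted p = 2.36e-06). Ezh2 deletion 4 held the least and Ezh2 deletion 2 the most. Hoxb6 was at 1.87, 2.36, 1.65 and 1.33 RPKM in Ezh2 deletion 1 to 4, against 0, 0, 0.0330 and 0 RPKM in wild type 1 to 4. It rose by 2.97 on the log2 scale (SE 0.166, limma adjusted p = 5.44e-06), with Ezh2 deletion 4 again lowest. The annotated antisense transcript Hoxb5os overlaps both genes.

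Hoxb7 and Hoxb8 held the most RNA of the cluster. Hoxb7, expressed in trunk and in the developing kidney ducts, was at 4.49, 5.30, 3.86 and 3.91 RPKM in Ezh2 deletion 1 to 4 and was listed at 0 in wild type 1 to 4 (limma adjusted p = 5.88e-08). Hoxb8, a spinal cord gene whose loss in mice causes excessive grooming, was at 8.01, 8.31, 5.83 and 7.34 RPKM in Ezh2 deletion 1 to 4, against 0, 0.0395, 0.0151 and 0.0369 RPKM in wild type 1 to 4. Every deletion library held more Hoxb8 than any library held of any other member. It rose by 4.79 on the log2 scale (SE 0.133, limma adjusted p = 3.69e-08), a difference that ranked 7 among the 14279 genes tested. Its deletion mean exceeded that of 62.2% of all listed genes, so Hoxb8 reached a middling level, not a high one.

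Hoxb9 and Hoxb13 close the row at the 5' end. Hoxb9, a gene of the thoracic region, was at 0.373, 0.376, 0.259 and 0.172 RPKM in Ezh2 deletion 1 to 4 and was listed at 0 in wild type 1 to 4. The groups did not overlap, and the exact two-sided permutation p over 70 arrangements was 0.0286, the lowest value that this number of libraries allows. In the limma fit without the level filter, which tested 19268 genes, Hoxb9 had an adjusted p = 0.00173 and Hoxb1 an adjusted p = 0.643. Hoxb13, a gene of the tail and of the prostate, was at 2.79, 3.48, 2.69 and 2.31 RPKM in Ezh2 deletion 1 to 4 and was listed at 0 in wild type 1 to 4 (limma adjusted p = 3.20e-07). Hoxb13 therefore held 9.55 times the mean RPKM of Hoxb9, the member before it. For genes listed at 0 throughout wild type the log2 difference is no bound on the change, and it is shown in the plot of the cluster and its neighbours only.

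Because low values stepped in whole reads, the number of reads behind each value could be worked out for 9 members, every value lying within 0.005 of a whole number, and Hoxb3 gave no whole-number solution. For a gene at 0 in all wild type libraries the smallest solution is given. Hoxb8 rested on 757, 1061, 440 and 749 reads in Ezh2 deletion 1 to 4, against 0, 3, 1 and 3 reads in wild type 1 to 4. Hoxb13 rested on 120, 202, 92 and 107 reads, and Hoxb9 on 36, 49, 20 and 18 reads, in Ezh2 deletion 1 to 4. Both genes were listed at 0 in every wild type library. Hoxb1 rested on 5, 8, 4 and 0 reads in Ezh2 deletion 1 to 4, against 1, 1, 1 and 4 reads in wild type 1 to 4. Over these 9 members there were 6711 reads in Ezh2 deletion and 20 in wild type, counting a listed 0 as no read, and for the members listed at 0 throughout wild type the deletion libraries held between 18 reads (Hoxb9) and 384 reads (Hoxb5).

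The reads also set how well each ratio is known. Per unit of depth, Hoxb8 reads were 305 times as frequent in Ezh2 deletion as in wild type (3007 reads against 7; exact 95% interval 148 to 760). For Hoxb2 the ratio was 227 (638 reads against 2; 62.5 to 1875), and for Hoxb4 it was 81.2 (343 reads against 3; 27.6 to 396). For Hoxb6, with 338 reads against 1, the ratio was 240 (42.8 to 9512), so its size is poorly fixed from above. Hoxb1 had 17 reads against 7, a ratio of 1.73 (0.680 to 4.92), an interval that includes no change. These intervals cover counting error only. PCR copies are not independent molecules. The abundant tubulin gene Tuba1a is listed at 0 in all 8 libraries, so a listed 0 can be a failed estimate.

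Levels in Ezh2 deletion did not follow position in the cluster. From highest to lowest mean the order was Hoxb8 (7.37 ± 1.10 RPKM), Hoxb7 (4.39 ± 0.671 RPKM), Hoxb3 (3.89 ± 0.717 RPKM), Hoxb5 (3.33 ± 0.939 RPKM), Hoxb13 (2.82 ± 0.491 RPKM), Hoxb2 (2.65 ± 0.736 RPKM), Hoxb6 (1.80 ± 0.435 RPKM), Hoxb4 (0.884 ± 0.0579 RPKM), Hoxb9 (0.295 ± 0.0980 RPKM) and Hoxb1 (0.0549 ± 0.0371 RPKM; SD, n = 4). RPKM is scaled to gene length, which allows levels to be compared between genes. The comparison is less certain for Hoxb2 to Hoxb6, where annotated overlaps leave reads that cannot be told apart, and for Hoxb3, whose reads gave no whole-number solution. The ranges of Hoxb8 and Hoxb7 were apart, as were those of Hoxb6 and Hoxb4, of Hoxb4 and Hoxb9, and of Hoxb9 and Hoxb1. From Hoxb7 down to Hoxb6 in this order, the range of each member overlapped that of the next. Hoxb13 was above Hoxb2 in 3 of 4 libraries and Hoxb5 above Hoxb13 in 3 of 4, so these neighbours in the order do not differ beyond their spread.

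The step from 1 gene to the next was repeated in each deletion library. The log2 ratio of Hoxb4 to Hoxb3 was between -2.34 and -1.84 in the 4 libraries, and that of Hoxb5 to Hoxb4 between 1.40 and 2.20. Hoxb6 again lay below Hoxb5, and Hoxb7 above Hoxb6 by 1.17 to 1.56 on the log2 scale. The steepest drop was between Hoxb8 and Hoxb9, where the mean log2 ratio of Hoxb9 to Hoxb8 was -4.70 ± 0.475 (SD, n = 4), and Hoxb13 stood above Hoxb9 by 2.91 to 3.74 on the same scale. Hoxb8 made up 24.3% to 31.4% of the summed HoxB level, Hoxb7 15.6% to 16.7% and Hoxb3 14.1% ± 0.490 (SD, n = 4). The share of Hoxb5 was 12.9% to 13.1% in Ezh2 deletion 1 to 3 and 9.12% in Ezh2 deletion 4, where Hoxb8 had its largest share.

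Sequence was at hand for 3 members in the RefSeq promoter table (GRCm38.p6), each a window of 250 bases before and 50 after the gene's start. They are shown because no window was at hand for the other members. They belong to the member with the highest level (Hoxb8), the one with the least spread (Hoxb4) and the one whose groups overlapped (Hoxb1). Capitals mark each CG dinucleotide, the site of DNA methylation and a feature of promoters bound by Polycomb. All 3 lie on the plus strand, at chr11:96365508-96365807 for Hoxb1, chr11:96318017-96318316 for Hoxb4 and chr11:96281655-96281954 for Hoxb8.
Hoxb1: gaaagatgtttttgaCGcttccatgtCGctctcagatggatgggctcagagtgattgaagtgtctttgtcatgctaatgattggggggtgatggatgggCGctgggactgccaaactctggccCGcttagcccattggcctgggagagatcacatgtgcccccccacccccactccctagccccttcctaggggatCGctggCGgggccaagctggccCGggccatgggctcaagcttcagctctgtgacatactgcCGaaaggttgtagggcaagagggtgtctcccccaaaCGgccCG
Hoxb4: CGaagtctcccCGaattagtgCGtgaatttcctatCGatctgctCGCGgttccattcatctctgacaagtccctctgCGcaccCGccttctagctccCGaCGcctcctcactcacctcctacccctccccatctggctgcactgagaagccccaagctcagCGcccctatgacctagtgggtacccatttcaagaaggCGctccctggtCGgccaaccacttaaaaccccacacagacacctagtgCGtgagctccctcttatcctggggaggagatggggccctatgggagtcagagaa
Hoxb8: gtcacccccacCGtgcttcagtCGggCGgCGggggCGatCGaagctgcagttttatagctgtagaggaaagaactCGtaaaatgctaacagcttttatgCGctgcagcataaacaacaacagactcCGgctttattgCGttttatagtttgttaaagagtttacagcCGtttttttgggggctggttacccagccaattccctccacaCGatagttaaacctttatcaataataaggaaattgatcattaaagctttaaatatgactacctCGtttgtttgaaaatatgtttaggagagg

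The 3 windows held 10 CG dinucleotides in Hoxb1, 14 in Hoxb4 and 13 in Hoxb8, against a median of 7 over 32841 promoter windows of the same length. Of all windows, 56.5% held fewer than Hoxb1, 63.7% fewer than Hoxb4 and 62.1% fewer than Hoxb8. G and C made up 59.3% of the Hoxb1 window, 58.0% of the Hoxb4 window and 42.3% of the Hoxb8 window. The letters TGATNNAT, the core that Hox proteins bind together with Pbx, were searched on both strands. They occurred once in Hoxb1 (TGATGGAT, starting 162 bases before the start) and once in Hoxb8 (ATTGATCA, starting 11 bases before it, on the opposite strand), and 8.85% of all windows hold them. The letters TATAAA, on either strand, were found 2 times in Hoxb8, 199 and 110 bases before the start, and 13.6% of windows hold them. A match is a description of letters only.

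The cluster also carries microRNA genes, which are shown because they lie within the row of members. Both precursors, Mir10a and Mir196a-1, were listed at 0 in all 8 libraries, and sequencing of polyadenylated RNA does not measure mature microRNAs. Their mature sequences from RefSeq follow, with the seed (bases 2 to 8) in capitals. The seeds differ, and miR-196a is known to direct cleavage of Hoxb8 mRNA in mouse embryos.
miR-10a-5p: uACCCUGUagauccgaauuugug
miR-196a-5p: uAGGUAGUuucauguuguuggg

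Of 7 noncoding transcripts of the cluster looked for, 3 were listed, the third being Gm53, annotated between Hoxb9 and Hoxb13. Gm53 was at 0.188, 0.139, 0 and 0.0579 RPKM in Ezh2 deletion 1 to 4 and was listed at 0 in wild type 1 to 4. It was present in 3 of the 4 deletion libraries and below the level filter, so it was not tested.

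The genes that flank the cluster were read next, to see how far the difference reached along the chromosome. On the Hoxb13 side Ttll6, which modifies tubulin, was at 0.0344, 0.0956, 0 and 0.0239 RPKM in Ezh2 deletion 1 to 4, against 0, 0.0107, 0.0123 and 0.00999 RPKM in wild type 1 to 4, and Calcoco2, an autophagy receptor gene, was above 0 in 1 deletion library only. On the Hoxb1 side Skap1, an adaptor of T cells, was at 0.386, 0.365, 0.267 and 0.274 RPKM in Ezh2 deletion 1 to 4, against 0.458, 0.594, 0.418 and 0.509 RPKM in wild type 1 to 4. The groups of Skap1 did not overlap, with the deletion libraries lower, but it did not pass (log2 difference -0.38, SE 0.140, limma adjusted p = 0.196). The same separation was found for the sorting nexin gene Snx11 (-0.20, limma adjusted p = 0.0700) and the ATP synthase subunit gene Atp5g1 (-0.24, limma adjusted p = 0.210), so 3 of the 10 flanking genes had all deletion libraries below all wild type libraries, where 4.32% of the 19268 genes above 0 did. Of the 10 nearest listed protein-coding genes, 5 on each side, 8 were tested and limma called 0 higher and 0 lower, with 1 higher and 3 lower at unadjusted p under 0.05. Cbx1, which encodes a heterochromatin protein, was at 112 RPKM in Ezh2 deletion and 117 RPKM in wild type on average.

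**Figure D2:**
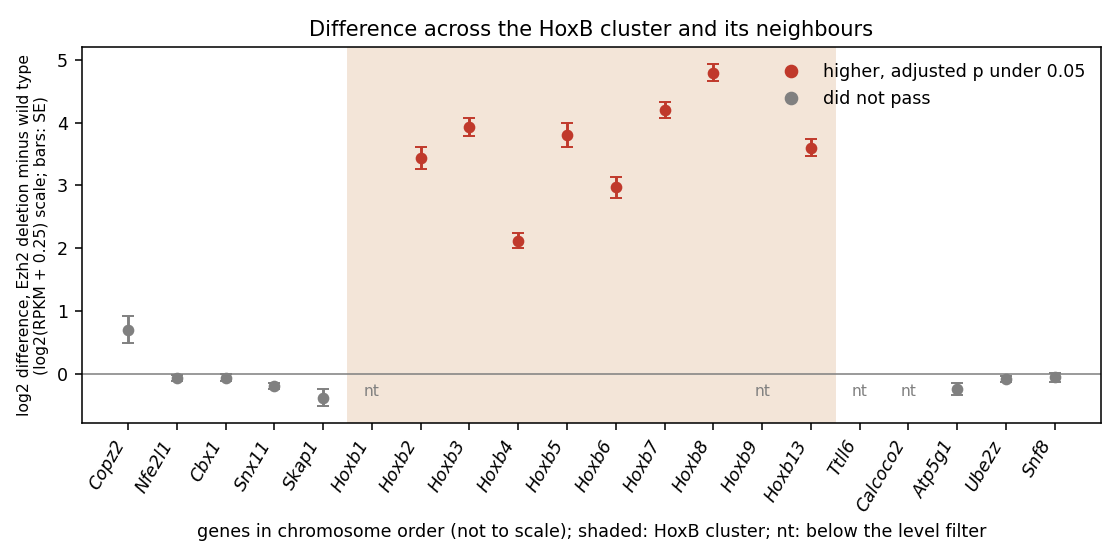
Log2 difference, Ezh2 deletion minus wild type, on the log2(RPKM + 0.25) scale with SE (vertical axis) for the HoxB genes (shaded) and the 5 nearest listed protein-coding genes on each side, in chromosome order and not to scale; nt marks genes below the level filter. Red points were called higher and lie within the cluster, from 2.12 for Hoxb4 to 4.79 for Hoxb8, and grey points, which did not pass, lie between -0.38 for Skap1 and 0.70 for Copz2.

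The deletion libraries differed from each other in HoxB level, and they did so across the row. Ezh2 deletion 2 was the highest deletion library for 10 of 10 members. The lowest was Ezh2 deletion 4 for 7 members and Ezh2 deletion 3 for Hoxb3, Hoxb7 and Hoxb8. Among the 387 genes called higher, Ezh2 deletion 2 was the highest deletion library for 38.8%, and among all genes tested for 29.3%. Genes of a cluster lie in the same chromatin and were measured in the same libraries, so the 10 members are not independent.

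Other measures moved with these libraries. Ezh2 deletion 2 had the lowest Ezh2 RNA level of the 4 (48.7 RPKM) and the greatest relative depth (2.11), and Ezh2 deletion 4 had the highest Ezh2 RNA level (64.4 RPKM). The 9 meningeal and mesenchymal markers summed to 24.6 RPKM in Ezh2 deletion 2, to 7.19 to 8.94 RPKM in the other deletion libraries and to 7.09 to 13.1 RPKM in wild type. The 7 microglial markers summed to 32.3 RPKM in Ezh2 deletion 2, to 18.6 to 19.8 RPKM in the other deletion libraries and to 16.5 to 23.5 RPKM in wild type. Limma called 0 of the 6 tested mesenchymal markers (0 at unadjusted p under 0.05) and 0 of the 7 microglial markers (1 higher and 1 lower at unadjusted p under 0.05). The 7 endothelial markers summed to 45.7 to 69.5 RPKM in Ezh2 deletion, with Ezh2 deletion 2 highest, and to 54.3 to 65.5 RPKM in wild type, and limma called 0 of them (0 at unadjusted p under 0.05). None of these markers was at 0 in all libraries, and their part in the HoxB levels of Ezh2 deletion 2 was not tested. Without Ezh2 deletion 2 the 8 tested members were all still called higher, where 302 of 14209 genes tested were. The members passed the filter through their deletion libraries, so this count too had to lean towards higher and is not used as support.

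**Figure D3:**
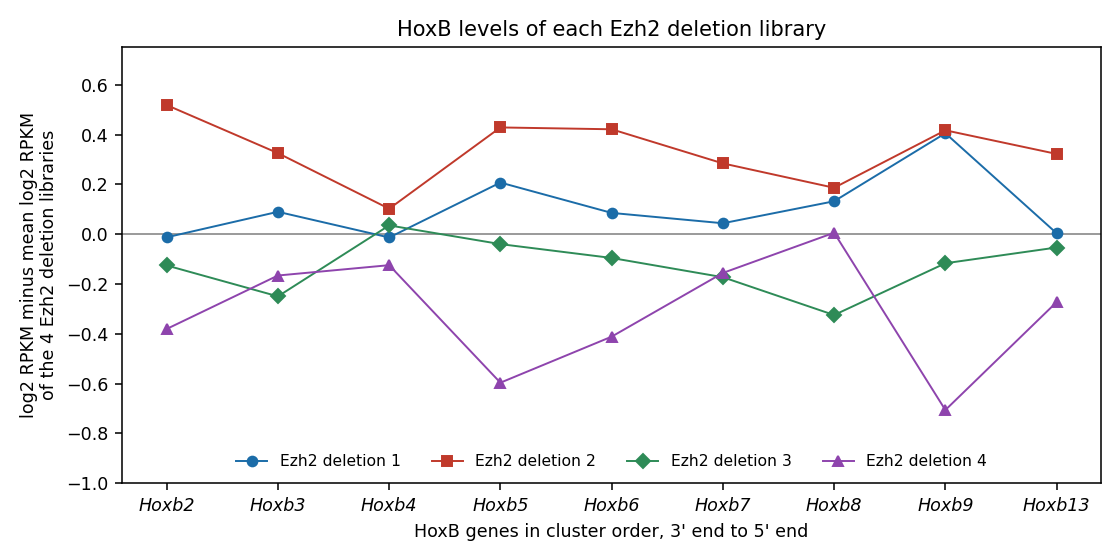
Log2 RPKM of each Ezh2 deletion library minus the mean over the 4 Ezh2 deletion libraries (vertical axis) for 9 HoxB genes in cluster order (horizontal axis), with 1 line per library; Hoxb1 is left out because 1 library is at 0. Ezh2 deletion 2 lies on top for every gene, by 0.10 for Hoxb4 to 0.52 for Hoxb2 above the mean, and Ezh2 deletion 4 reaches -0.71 at Hoxb9.

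The members were then compared within the libraries that carry Y-linked RNA, Ezh2 deletion 4 set against wild type 1 to 4. The spread in that fit comes from wild type alone, and Ezh2 deletion 4 is taken to vary as wild type does. Of the 7 members above the level filter there, 7 were called higher, where 1.38% of 14142 genes were. They passed the filter through Ezh2 deletion 4, so this count too had to lean towards higher and is not used as support. Hoxb8 differed by 4.80 on the log2 scale (SE 0.231, limma adjusted p = 1.27e-04) and Hoxb2 by 3.09 (SE 0.241, limma adjusted p = 0.00164), beside 4.79 and 3.43 over all libraries. Hoxb4 lay below the filter in these libraries. Ezh2 RNA itself differed by -0.29 on the log2 scale in the same comparison, while HoxB RNA in Ezh2 deletion 4 summed to 23.4 RPKM. Whole-gene RPKM may include RNA from the deleted allele, so this difference does not measure the loss of Ezh2 function.

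HoxB RNA is normally found in brainstem, spinal cord and trunk tissue, and markers of these tissues were therefore read beside the members. Of 12 brainstem and cranial motor markers 8 were tested, 1 was higher and 0 were lower by limma (2 higher and 0 lower at unadjusted p under 0.05), and they summed to 21.0 to 30.5 RPKM in Ezh2 deletion and to 17.9 to 25.8 RPKM in wild type. The higher gene was Slc6a4, the serotonin transporter, at 0.445 RPKM in Ezh2 deletion and 0.126 RPKM in wild type (limma adjusted p = 0.0491), and of the 8 fits that each left out 1 library, only that without Ezh2 deletion 1 called it. Th, which makes catecholamines and was the most abundant gene of the list, was at 9.72 RPKM in Ezh2 deletion and 5.95 RPKM in wild type (limma adjusted p = 0.131). Its deletion libraries (7.73 to 11.5 RPKM) all lay above its wild type libraries (3.51 to 7.12 RPKM). The same held for Slc6a4 and for 6.08% of the 19268 genes above 0, while the groups of the other markers of the list overlapped. RNA of brainstem markers was thus present in both genotypes, and its part in the HoxB result was not tested.

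Markers of tissue further back were read next. Of 8 spinal cord markers 4 were tested, and limma called 0 (1 higher and 0 lower at unadjusted p under 0.05). The 8 markers summed to 14.0, 7.56, 17.7 and 30.3 RPKM in Ezh2 deletion 1 to 4, against 7.25 to 12.1 RPKM in wild type. Of these sums Nkx6-2 made up 0.299, 0.138, 7.55 and 16.2 RPKM in Ezh2 deletion 1 to 4, and it did not exceed 0.348 RPKM in wild type. The part of spinal cord tissue in the HoxB result was not tested. Evx2, the most abundant of the list, was at 5.62 RPKM in Ezh2 deletion and 5.25 RPKM in wild type (limma adjusted p = 0.943). Mnx1, a defining gene of spinal motor neurons, was at 0 in 7 of 8 libraries and at 0.0153 RPKM in Ezh2 deletion 2. Of 9 markers of somites and their mesoderm only Tcf15 passed the level filter, at 3.66 RPKM in Ezh2 deletion and 2.50 RPKM in wild type (limma adjusted p = 0.357), and Meox1, Meox2, Tbx6, Pax1, Pax9, Myf5, Myod1 and Myog did not exceed 0.366 RPKM in any library. Of 7 neural crest markers 5 were tested, and limma called 1 higher and 0 lower (1 higher and 0 lower at unadjusted p under 0.05). It was Foxd3, at 2.00 RPKM in Ezh2 deletion and 0.0523 RPKM in wild type (limma adjusted p = 3.21e-04). The list had a median log2 difference of -0.13 and summed to 138 to 186 RPKM in Ezh2 deletion and to 127 to 199 RPKM in wild type. The part of neural crest in the HoxB result was not tested. Of 10 erythroid markers 9 were tested and limma called 0 (0 higher and 2 lower at unadjusted p under 0.05), with sums of 317 to 683 RPKM in Ezh2 deletion and 385 to 463 RPKM in wild type.

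The other 3 Hox clusters give the closest comparison. Their summed levels in Ezh2 deletion, beside 27.5 ± 4.81 RPKM for HoxB (SD, n = 4), were 15.4 to 25.1 RPKM for HoxA (11 genes), 8.41 to 14.3 RPKM for HoxC (9 genes) and 5.71 to 7.53 RPKM for HoxD (9 genes). HoxB was the highest of the 4 sums in each deletion library. In wild type the sums were 0.0807 to 0.768 RPKM for HoxA, 0.0181 to 0.118 RPKM for HoxC and 0.242 to 0.367 RPKM for HoxD. The rise was thus not particular to HoxB. All deletion libraries lay above all wild type libraries for 9 HoxA, 8 HoxC and 7 HoxD genes, beside 9 HoxB genes. The share was 6.08% over the 19268 genes above 0. Ezh2 deletion 2 was the highest deletion library for 6 of 11 HoxA genes, 7 of 9 HoxC genes and 1 of 9 HoxD genes, where Ezh2 deletion 1 was highest for 6. Ezh2 deletion 4 was the lowest for 9 of 11 HoxA, 7 of 9 HoxC and 2 of 9 HoxD genes. The 4 clusters were read from the same libraries, and no test was made between them.

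Genes with the same number in different clusters are paralogues, copies from the duplications that gave mammals their Hox clusters. In Ezh2 deletion the HoxB gene had the highest mean of its paralogue group in 5 of the 9 groups compared, from Hoxb2 to Hoxb13. All 4 deletion values of Hoxb3, Hoxb6, Hoxb7, Hoxb8 and Hoxb13 lay above all deletion values of their paralogues. Hoxb8 was between 5.83 and 8.31 RPKM, against 1.30 to 1.49 RPKM for Hoxd8 and 0.629 to 1.40 RPKM for Hoxc8. Hoxb13 was between 2.31 and 3.48 RPKM, against 0.236 to 0.544 RPKM for Hoxc13, 0.269 to 0.578 RPKM for Hoxd13 and 0.0433 to 0.205 RPKM for Hoxa13. Hoxb9 was the reverse case: at 0.172 to 0.376 RPKM it lay below Hoxc9 (4.70 to 7.31 RPKM), Hoxa9 (1.74 to 2.72 RPKM) and Hoxd9 (1.35 to 1.88 RPKM). With 4 libraries, an exact paired test of such a difference cannot go below p = 0.125, so none is given.

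The other groups were mixed. Hoxb2 and Hoxa2 had means of 2.65 and 2.80 RPKM and overlapped. Hoxa2 was at 0.356, 0.588, 0 and 0.163 RPKM in wild type 1 to 4, where Hoxb2 did not exceed 0.0283 RPKM, and Hoxd13 was at 0.177 to 0.268 RPKM in wild type. Hoxa5 (mean 5.52 RPKM) and Hoxc4 (mean 2.40 RPKM) had higher means than Hoxb5 and Hoxb4.

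**Figure D4:**
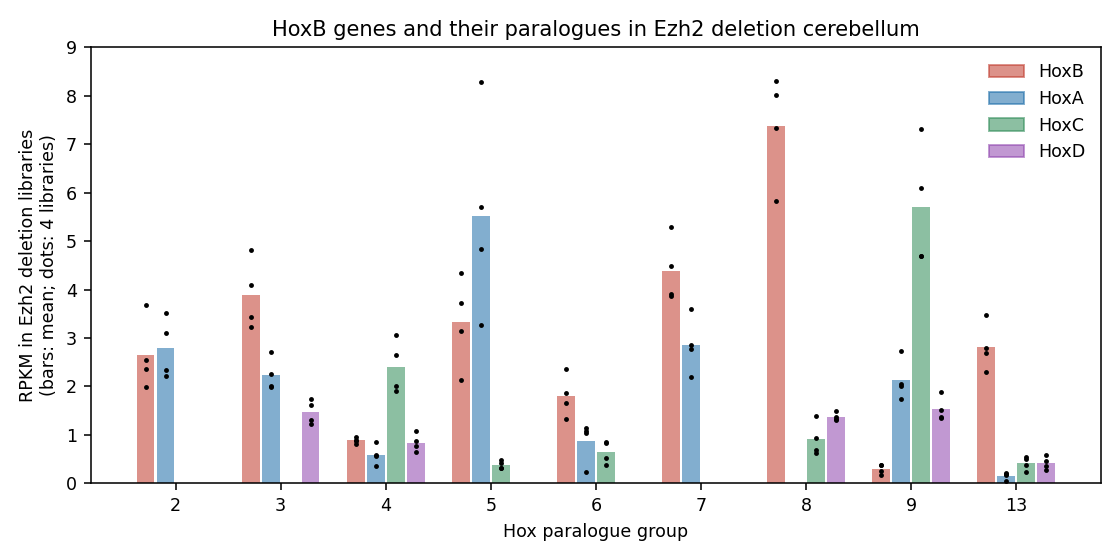
RPKM in the 4 Ezh2 deletion libraries (vertical axis; bars are means, dots are libraries) for the paralogue groups of Hoxb2 to Hoxb9 and Hoxb13 (horizontal axis), with clusters B, A, C and D in different colours. All 4 HoxB dots stand above those of the other clusters in groups 3, 6, 7, 8 and 13 and below them in group 9, where Hoxc9 has a mean of 5.70 RPKM against 0.295 RPKM for Hoxb9.

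Genes whose levels over the 8 libraries lay closest to those of the cluster were then sought. The measure was the root mean square difference from the mean log2(RPKM + 0.25) of the 8 tested members. It compares absolute levels, so a near gene need not follow the members from library to library. Of the 10 nearest genes, 8 were other Hox genes, in order Hoxa7 (0.12), Hoxa10 (0.13), Hoxc4 (0.20), Hoxa3 (0.25), Hoxa9 (0.38), Hoxa5 (0.62), Hoxd9 (0.62) and Hoxc9 (0.64). The other two were Cdkn2a (0.60), an inhibitor of the cell cycle, and Foxd3 (0.63), a factor of neural crest. Cdkn2a was at 4.38, 8.21, 3.96 and 5.15 RPKM in Ezh2 deletion 1 to 4, against 0.0557, 0, 0 and 0 RPKM in wild type 1 to 4. Like the HoxB members, it was highest in Ezh2 deletion 2, while Foxd3 was lowest there, at 1.23 RPKM. Of the near Hox genes, Hoxa7, Hoxc4, Hoxa3, Hoxa5 and Hoxc9 were highest in Ezh2 deletion 2. Hoxa10, Hoxa9 and Hoxd9 were highest in Ezh2 deletion 1.

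Genes that work with or upstream of Hox genes are set beside the 2.71% of all genes called higher. Of 9 Hox cofactors, whose proteins bind DNA together with Hox proteins, all 9 were tested, 1 (11.1%) was higher and 0 were lower by limma (4 higher and 0 lower at unadjusted p under 0.05), with a median log2 difference of 0.11 against -0.012 over all genes tested. Meis2 was the higher gene, at 82.9, 67.3, 74.1 and 82.9 RPKM in Ezh2 deletion 1 to 4, against 44.7, 44.5, 38.2 and 46.0 RPKM in wild type 1 to 4 (log2 difference 0.82, SE 0.0822, limma adjusted p = 4.65e-04), and in Ezh2 deletion 4 against wild type it differed by 0.94 (limma adjusted p = 0.0106). Its groups did not overlap, and Meis2 was abundant in wild type tissue that held almost no HoxB RNA. Pbx3, the most abundant of them, was at 169 ± 17.6 RPKM in Ezh2 deletion and 162 ± 9.92 RPKM in wild type (SD, n = 4; limma adjusted p = 0.744). Of 9 upstream regulators of Hox genes 4 were tested, and 1 (25.0%) was higher and 0 were lower (2 higher and 0 lower at unadjusted p under 0.05). It was Nr6a1, an orphan nuclear receptor that helps time trunk Hox genes, at 2.10 ± 0.0736 RPKM in Ezh2 deletion and 1.04 ± 0.140 RPKM in wild type (SD, n = 4; limma adjusted p = 0.00219), a log2 difference of 0.88, and in Ezh2 deletion 4 against wild type it differed by 0.82 without passing (limma adjusted p = 0.108). Cdx1, Cdx2 and Cdx4, which switch on trunk Hox genes in the early embryo, and Egr2, a hindbrain regulator, were below the filter, and Gbx2, which sets the front edge of the hindbrain, did not pass (log2 difference 0.087, limma adjusted p = 0.730).

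Retinoic acid is the signal that switches on 3' Hox genes in the hindbrain, and 18 genes of its pathway were read. Of these 13 were tested, and 2 were higher and 1 lower by limma (5 higher and 3 lower at unadjusted p under 0.05), with a median log2 difference of 0.041. Crabp1, a cytoplasmic carrier of retinoic acid, was at 254, 195, 215 and 260 RPKM in Ezh2 deletion 1 to 4, against 26.3, 42.3, 55.1 and 60.2 RPKM in wild type 1 to 4. It rose by 2.38 on the log2 scale (SE 0.263, limma adjusted p = 0.00404), and in Ezh2 deletion 4 against wild type, where the difference was 2.56, it did not pass (limma adjusted p = 0.142). Rara, a retinoic acid receptor, was at 6.70 ± 0.796 RPKM in Ezh2 deletion and 4.77 ± 0.283 RPKM in wild type (SD, n = 4; limma adjusted p = 0.0226), a log2 difference of 0.47. Without wild type 1, 2 or 4 it was not called, with differences of 0.43 to 0.47 (adjusted p = 0.0525 to 0.0707), and in Ezh2 deletion 4 against wild type the difference was 0.38 (limma adjusted p = 0.169). Dhrs3, an enzyme that lowers retinoic acid production, was at 15.0 ± 2.84 RPKM in Ezh2 deletion and 22.3 ± 1.51 RPKM in wild type (SD, n = 4; limma adjusted p = 0.0362), a log2 difference of -0.58. Of the 8 fits that each left out 1 library, 6 did not call it, with differences of -0.62 to -0.54, and in Ezh2 deletion 4 against wild type it differed by -0.95 (limma adjusted p = 0.00640). Aldh1a2, the main retinoic acid synthase of the embryo, was at 0.338, 0.882, 0.204 and 0.151 RPKM in Ezh2 deletion 1 to 4, against 0.0980, 0.125, 0 and 0.0146 RPKM in wild type 1 to 4. Its highest value was in Ezh2 deletion 2, as for the HoxB members, and it lay below the level filter.

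The machinery that silences and opens Hox clusters was read last. Of 11 PRC2 subunits, all tested, limma called 0 higher and 1 lower, which was Ezh2 itself (1 higher and 1 lower at unadjusted p under 0.05), with a median log2 difference of -0.021. Of 12 Trithorax and H3K27 demethylase genes, which oppose Polycomb, 11 were tested and limma called 0 (1 higher and 0 lower at unadjusted p under 0.05), with a median of -0.024. Rbbp4, the most abundant PRC2 gene, was at 77.1 RPKM in Ezh2 deletion and 80.3 RPKM in wild type on average, and Ash2l, of the Trithorax group, at 68.3 RPKM in Ezh2 deletion and 68.7 RPKM in wild type.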

How the data were processed

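Polyadenylated RNA from E13.5 cerebellum was sequenced in 8 libraries, grouped by their titles, 4 per genotype. The authors deposited 1 table of RPKM values, 1 column per library. Build mm9 and the tools TopHat, Bowtie, Cuffdiff and SICER are named in the submitters' processing notes, without versions or roles. For annotation, strand use and multi-mapping reads, nothing is given in the sources used here. Relative depth came from the modal ratio of values in genes under a mean of 0.1 RPKM; 83.4% of 14868 such values were whole multiples, to a tolerance of 0.05, of the smallest in their gene after scaling by depth, that smallest value included. Total depth is unknown.

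Genes were tested with limma 3.58.1 in R 4.3.3 (trend and robust eBayes), with Benjamini-Hochberg adjustment over all genes, a threshold of 0.05, and tested on simulated data first. No count model was used. Members, gene lists, tests and alternatives were chosen with earlier results of these data known. Named genes were the members, Ezh2, flanking genes, paralogues and listed noncoding transcripts. Added to these were up to 4 called and the most abundant gene of each list, and the 10 genes nearest in level. Others are named as examples chosen after their values were seen. Some genes of these lists are not reported here. Neighbours and older symbols came from RefSeq GRCm38.p6. Alternatives changed the pseudocount, filter, scaling, variance model, weights, design, threshold and libraries.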

Additional observations from a re-analysis of the deposited data

Results flagged for a closer look

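Of 58 groups of 4 libraries examined (members, Ezh2, cluster sums, relative depth, flanking and noncoding genes), 5 had 1 library far from the other 3, with a gap to the nearest library that was a large part of the group's range. Chance gives about 1 in 20 for continuous values, a rate that does not apply to groups of 0 to 4 reads, where 1 library with a read is enough. For Hoxb1 in Ezh2 deletion the gap was 0.844 of the range (Ezh2 deletion 4 at 0 RPKM), and for Hoxb1 in wild type it was 0.906 (wild type 4 at 0.0641 RPKM, 4 reads). For Hoxb3 in wild type it was 0.895 (wild type 2 at 0.0414 RPKM). For Hoxb6 in wild type it was 1, since wild type 3 alone held 1 read. For Calcoco2 in Ezh2 deletion it was also 1, since Ezh2 deletion 2 alone was above 0, at 0.0317 RPKM.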

How the results depend on the processing

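Over 23 alternatives, 181 values of the 8 tested members were read, and in all 181 the member stayed higher and called. The alternatives of an adjusted p of 0.01 and of 2-fold reused the main fit with another threshold. In every fit with a level filter the members passed through their deletion libraries. These calls thus had to lean towards higher and are not used as support. With a filter of 1 RPKM 6 members were tested and 6 called higher, where 285 of 12586 genes were. Without a filter 9 of the 10 members were called higher, where 421 of 19268 genes were. In Ezh2 deletion 4 against wild type 7 members were tested. In every other alternative 8 were tested and 8 called higher. Leaving out 1 library moved Hoxb8 between 4.73 and 4.90, whereas pseudocounts of 0.1 and 1 gave 5.93 and 3.02 for Hoxb8, 4.58 and 1.83 for Hoxb2 and 3.16 and 0.90 for Hoxb4. Over all genes, those higher numbered 387 and those lower 106 (78.5% higher). Higher genes numbered 195 in libraries with Y-linked RNA, 173 at an adjusted p of 0.01, 124 at 2-fold, and 223 to 352 with 1 library left out, of which 227 without Ezh2 deletion 3, 244 without wild type 3 and 223 without wild type 4. Lower genes numbered 55 with the same sum in every library (89.6% higher) and 55 with erythroid and Y-linked genes and Xist removed (89.7%). With a term for Y-linked RNA they numbered 232, and the share higher was 54.3%. They numbered 181 with array weights, 28 at an adjusted p of 0.01, 9 at 2-fold, and 40 to 100 with 1 library left out. With the replicate number as a block there were 300 higher and 53 lower genes, and the 8 members stayed called. Same-numbered libraries had correlations of 0.0034, 0.087, 0.063 and 0.052, and libraries with different numbers -0.23 to 0.19. The labels do not say whether the numbers pair libraries, and such correlations cannot decide it. The cause was not tested for any of these shifts. Depth limits Hoxb1, at no more than 8 reads per library, and the wild type side of every ratio of reads.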
